A study of Mus musculus with 11 samples.

Results

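The mitochondrial ribosomal proteins are the nuclear-encoded subunits of the ribosome that works inside mitochondria. All probes of the raw intensity table whose platform gene symbol starts with Mrpl or Mrps followed by a digit were taken, which gave 132 of 45281 probes on the array. They belong to 76 genes, of which 48 are named for the large subunit (Mrpl, 83 probes) and 28 for the small subunit (Mrps, 49 probes). The symbols and not the measured values chose them.

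Mitochondrial ribosomes translate the few proteins that the mitochondrial genome encodes, all of them membrane subunits of the respiratory chain and the ATP synthase. Their protein subunits are made in the cytosol, imported and assembled on mitochondrial ribosomal RNA. One part of the subunits has homologues in bacterial ribosomes, and the other part is found only in mitochondria. Mrps18a and Mrps30, named for the small subunit, sit in the large one.

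Basal progenitors, dividing cells of the developing cortex that lie away from the ventricle and produce neurons, were sorted by flow cytometry from mouse cortex at embryonic day 13 (E13, 6 arrays) and embryonic day 16 (E16, 5 arrays). Each array was a separate biological replicate, and 3 litters supplied the embryos of a stage. The array column names end in WT, read here as wild type, and no treatment or allele is named for either stage. No source used here gives the sort marker, the strain or each embryo's litter, so p-values treat the arrays as independent although some share a litter.

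Each array detected between 43.6% and 45.5% of all probes at a detection p-value under 0.05. Of 12 basal progenitor markers on the array 11 were tested, and Btg2 was detected on no array. Eomes, the transcription factor that marks basal progenitors, was detected on all 11 arrays, at 11.1 ± 0.264 (SD, n = 6) on the log2 scale at E13 and 10.4 ± 0.327 (SD, n = 5) at E16. Of 6 endothelial markers on the array 4 were detected on no array, as were 5 of 7 mural and meningeal and 5 of 7 microglial markers. The other microglial markers, Csf1r and Aif1, were tested. Dcn, a mural and meningeal marker, was detected on up to 4 E13 arrays and 0 E16 arrays. Of 7 choroid plexus and hem markers 2 were tested, Rspo2 and Lmx1a, and both were lower at E16. Several marker lists differed between the stages. All 6 Cajal-Retzius markers tested were lower at E16, and their summed linear intensity ran from 12023 to 18354 at E13 and from 2790 to 5281 at E16. Of 10 proliferation markers 8 were lower (sum 9089 to 12418 at E13, 4131 to 5072 at E16), as were 10 of 11 basal progenitor markers (32798 to 42005, then 23408 to 30383). Postmitotic neuron markers were also present, with 9 tested and 3 lower (sum 54511 to 64146 at E13, 49763 to 56526 at E16). Of 10 radial glia markers tested 2 were lower and 2 higher (3115 to 4898, then 2740 to 3134). Among all genes 14.1% were lower and 13% higher. The red cell marker tested, Hba-a1, ran from 33.9 to 748 at E13 and from 595 to 2009 at E16 on the same linear scale. The part of these shifts in the results below was not tested, and in sorted bulk samples fewer cells of a type and less RNA per cell cannot be told apart.

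Nearly all mitochondrial ribosomal protein genes were measured. Of the 132 probes 115 passed the detection filter (detected on at least 5 arrays), and they covered 73 of the 76 genes, 46 of the large and 27 of the small subunit. Of these 73 genes 72 were detected on all 11 arrays. Mrpl45, a subunit that binds the inner membrane, was detected on all 6 arrays at E13 and on 4 of the 5 at E16. The 4 probes of Mrpl19, Mrpl32 and Mrps14 were detected on 0 of 11 arrays, so these genes have no test. Because nearly every gene passed at both stages, the filter removed almost no member. Each gene was represented by its brightest probe, and values of different probes are not compared as levels.

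Most genes of both subunits read slightly lower at E16 than at E13. Differences are E16 minus E13 of normalized log2 intensity. The median difference was -0.16 over the 46 large subunit genes and -0.15 over the 27 small subunit genes, against -0.01 over all 10568 genes tested. As a fold, the median gene of both subunits was 1.11-fold lower at E16. Of the large subunit genes 39 of 46 lay below 0 and of the small subunit genes 22 of 27, which makes 61 of 73 (83.6%), against 50.8% of all genes. A difference between the subunits was not tested. With Mrps18a and Mrps30 moved to the large subunit, where they sit in the structure, the medians were -0.16 and -0.15 again.

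Few single genes passed the test. In limma with Benjamini-Hochberg adjustment over all genes and a threshold of 0.05, 11 of 73 genes fell (15.1%) and 0 rose. The background was 27.1% of all genes called, 14.1% lower and 13% higher. The share that fell was therefore near the background, and the share called in either direction was below it. Of the large subunit genes 7 of 46 fell and of the small subunit genes 4 of 27. At an unadjusted p under 0.05, 21 of 73 genes (28.8%) were lower and 0 higher, against 20% lower and 18.4% higher of all genes. The count depended on single arrays. It was 6 without E13 replicate 1, 6 without E13 replicate 3, 6 without E13 replicate 4 and 7 without E13 replicate 5. Without E13 replicates 2 and 6 it was 9 and 8. It was 5, 4 and 6 without E16 replicates 1, 2 and 3, and it rose to 16 and 12 without E16 replicates 4 and 5. Without E13 replicate 1 and E16 replicate 3 together, the arrays with the highest Cajal-Retzius marker level of their stage, 2 genes passed. The number of all 10568 genes that fell moved too. It was 1495 with all arrays, between 1298 and 1509 with 1 array left out, and 1153 without those 2 arrays.

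**Figure D1:**
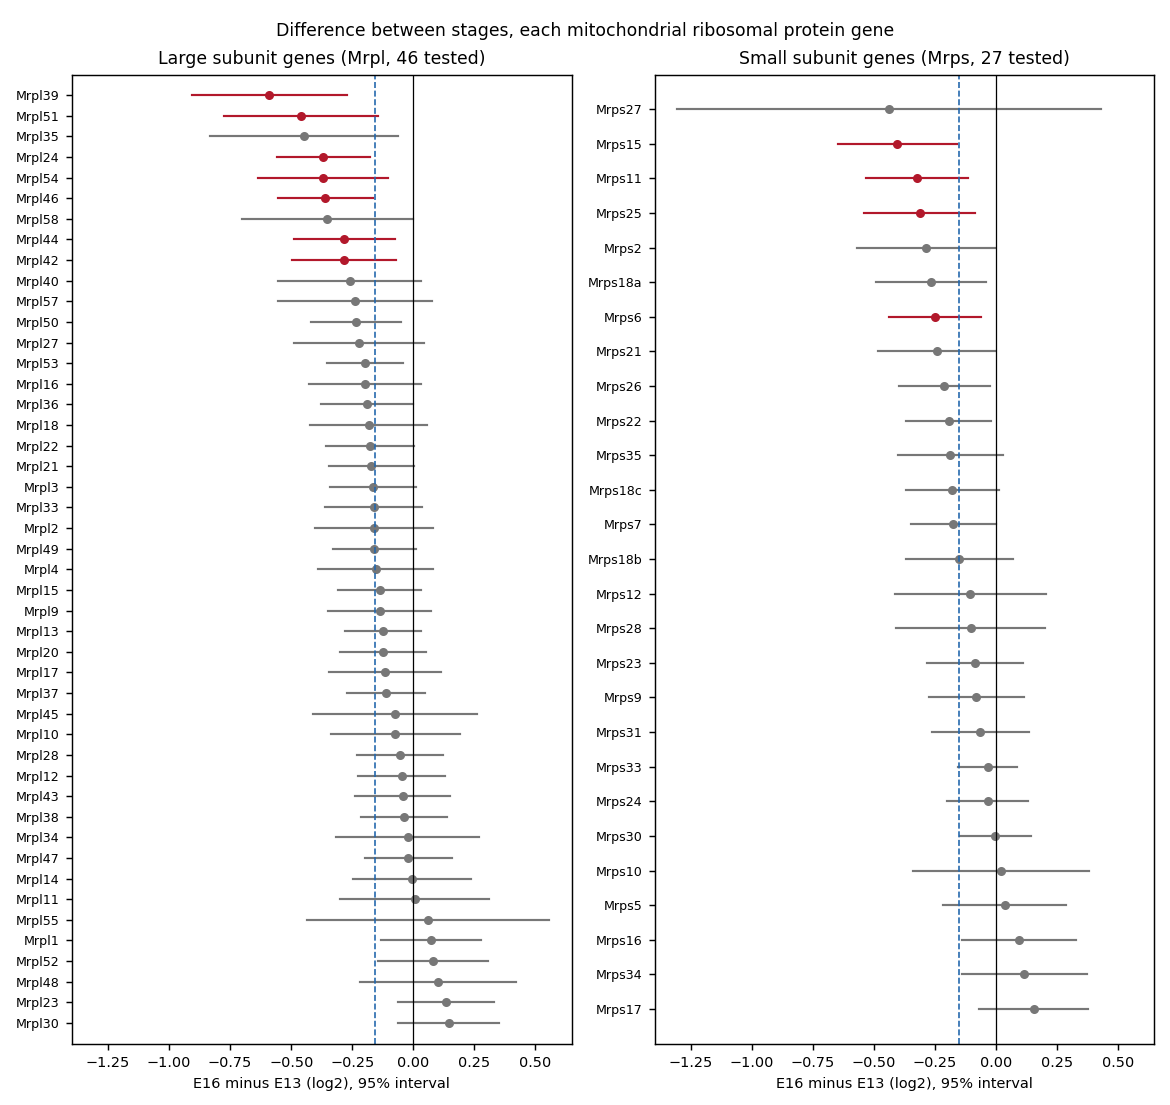
Difference between the stages for each of the 46 large subunit genes (left) and 27 small subunit genes (right), as E16 minus E13 on the log2 scale, with 95% intervals from limma. Red marks the 7 and 4 genes that passed the test, grey the others, and the dashed line is the median of the subunit, at -0.16 and -0.15.

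The differences were small and narrowly spread. They ran from -0.59 (Mrpl39) to 0.15 (Mrps17). This range was set by the members themselves, so it holds all of them, and it held 64.1% of all genes. The 95% interval lay wholly within a 1.5-fold change either way for 66 of 73 genes (90.4%), against 65.4% of all genes. The median standard error was 0.0998 for these genes and 0.126 for all genes. For these comparisons the members were not matched to other genes of like intensity. The stages did not overlap between arrays for 3 of the 73 genes (4.11%), where the background was 17%.

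The 3 genes whose arrays did not overlap all belong to the large subunit. Mrpl39, a subunit found only in mitochondria, read 6.58 at the lowest, 6.80 at the median and 7.29 at the highest E13 array. Its E16 arrays read 6.44, 6.46, 6.08, 6.30 and 6.26, so that every E16 array lay below every E13 array. It fell by 0.59 (SE 0.148, adjusted p = 0.00801 in limma), a 1.51-fold decrease and the largest among the members. Mrpl24, the homologue of a bacterial protein at the exit of the peptide tunnel, ranged from 10.11 to 10.48 at E13 with a median of 10.26. At E16 it read 9.79, 9.88, 9.96, 10.03 and 9.89. It fell by 0.37 (SE 0.0892, adjusted p = 0.00610), and it was the gene whose call held in all 25 alternatives run. Mrpl46, which sits in the central protuberance of the large subunit, ranged from 10.17 to 10.58 at E13 with a median of 10.28, and its E16 arrays read 10.04, 9.89, 9.87, 10.12 and 9.99. It fell by 0.36 (SE 0.0913, adjusted p = 0.00846). E13 replicates 1, 2 and 3 held the highest values of Mrpl24, replicates 1 and 2 those of Mrpl39, and replicates 1 and 3 those of Mrpl46.

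The promoters of these genes, and of Mrps11, are shown because Mrpl46 and Mrps11 lie head to head and both fell. Each window runs from 250 bases before to 50 after the start site in RefSeq (GRCm38.p6). Capitals mark matches on either strand to the NRF1 motif (GCGCA, any base, GCGC), CCGGAAGT (the GABPA motif) or AAGATGGCG (the YY1 motif), factors known for binding near genes of mitochondrial function. The windows are chr16:84735195-84735494 on the minus strand for Mrpl39, chr3:87919294-87919593 on the plus strand for Mrpl24, chr7:78783040-78783339 on the minus strand for Mrpl46 and chr7:78782881-78783180 on the plus strand for Mrps11.
Mrpl39: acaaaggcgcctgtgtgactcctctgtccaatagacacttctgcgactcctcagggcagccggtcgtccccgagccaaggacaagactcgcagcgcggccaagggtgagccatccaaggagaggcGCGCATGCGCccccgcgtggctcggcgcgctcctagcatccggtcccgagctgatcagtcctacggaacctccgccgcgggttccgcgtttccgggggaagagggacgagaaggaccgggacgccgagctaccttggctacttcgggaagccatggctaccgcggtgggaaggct
Mrpl24: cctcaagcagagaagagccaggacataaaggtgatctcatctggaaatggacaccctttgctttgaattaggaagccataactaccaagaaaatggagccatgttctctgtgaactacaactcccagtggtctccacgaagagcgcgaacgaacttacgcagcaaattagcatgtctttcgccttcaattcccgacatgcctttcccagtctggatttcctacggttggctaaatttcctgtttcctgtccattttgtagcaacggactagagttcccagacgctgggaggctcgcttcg
Mrpl46: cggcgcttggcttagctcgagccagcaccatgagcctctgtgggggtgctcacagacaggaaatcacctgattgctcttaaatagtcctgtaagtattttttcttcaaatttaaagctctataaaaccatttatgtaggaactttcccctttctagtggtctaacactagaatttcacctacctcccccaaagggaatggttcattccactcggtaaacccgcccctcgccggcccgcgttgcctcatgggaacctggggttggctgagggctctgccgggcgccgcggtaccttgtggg
Mrps11: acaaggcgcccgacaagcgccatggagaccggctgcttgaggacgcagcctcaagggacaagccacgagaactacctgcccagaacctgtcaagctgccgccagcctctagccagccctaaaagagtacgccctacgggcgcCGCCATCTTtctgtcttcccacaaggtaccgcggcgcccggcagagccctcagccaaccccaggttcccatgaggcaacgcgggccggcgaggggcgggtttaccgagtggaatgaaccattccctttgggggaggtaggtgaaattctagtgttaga
Mrpl39 has 1 NRF1 match at position -125 relative to the start site, and Mrps11 has 1 YY1 match at position -108. None of these 3 letter strings occurs in the windows of Mrpl24 and Mrpl46. The start sites of Mrpl46 and Mrps11 are 42 bases apart on opposite strands, and their windows share 141 bases. The YY1 match of Mrps11 lies just outside this shared stretch, past the downstream end of the Mrpl46 window. Its absence from the Mrpl46 window therefore depends on where the window ends.

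Mrps11, a subunit with a bacterial homologue in the platform of the small subunit, fell with its neighbour. It ranged from 9.69 to 10.10 at E13 with a median of 9.75, and its E16 arrays read 9.51, 9.40, 9.49, 9.72 and 9.37. E16 replicate 4, at 9.72, lay above 2 E13 arrays. The decrease was 0.32 (SE 0.0978, adjusted p = 0.0231 in limma). Both kept probes of Mrps11 passed when probes were tested one by one, at -0.32 and -0.27.

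The other large subunit genes that fell are found only in mitochondria. Mrpl51 ranged from 7.33 to 7.73 at E13 with a median of 7.49. At E16 it read 6.86, 6.85, 7.41, 6.80 and 7.41, so that replicates 3 and 5 lay among the E13 arrays. It fell by 0.46 (SE 0.148, adjusted p = 0.0318 in limma). Of its 3 probes a second one also fell (-0.41), and the third gave -0.01 (adjusted p over probes 0.965). Mrpl54 fell by 0.37 (SE 0.125, adjusted p = 0.0398), with E13 arrays from 9.93 to 10.50 and E16 arrays at 9.90, 9.78, 9.68, 10.31 and 9.80. Mrpl44, which has a ribonuclease III-like fold, was tight at E13, between 9.25 and 9.39. At E16 it read 8.85, 8.81, 9.02, 9.27 and 9.18 and fell by 0.28 (adjusted p = 0.0419). Mrpl42 fell by 0.28 (adjusted p = 0.0478), from an E13 range of 10.23 to 10.64 to E16 values of 10.00, 10.10, 10.04, 10.18 and 10.43. Replicate 4 was the highest E16 array for Mrpl54 and Mrpl44, and replicate 5 for Mrpl42.

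In the small subunit the largest decrease that passed was that of Mrps15, whose bacterial homologue binds the ribosomal RNA early in assembly. It ranged from 8.94 to 9.38 at E13 with a median of 9.25, and its E16 arrays read 8.80, 8.70, 8.55, 9.05 and 8.93. Only E16 replicate 4 exceeded the lowest E13 array. The decrease was 0.40 (SE 0.113, adjusted p = 0.0155 in limma), and its dimmer probe gave -0.17 (adjusted p over probes 0.397). Mrps25, found only in mitochondria, ranged from 7.69 to 7.96 at E13 and read 7.52, 7.46, 7.41, 7.63 and 7.79 at E16. It fell by 0.31 (adjusted p = 0.0403), and its 3 kept probes gave -0.31, -0.37 and -0.36. Mrps6, a subunit with a bacterial homologue, fell by 0.25 (adjusted p = 0.0484). Its E13 arrays ran from 10.64 to 11.05 and its E16 arrays read 10.60, 10.58, 10.43, 10.81 and 10.70.

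**Figure D2:**
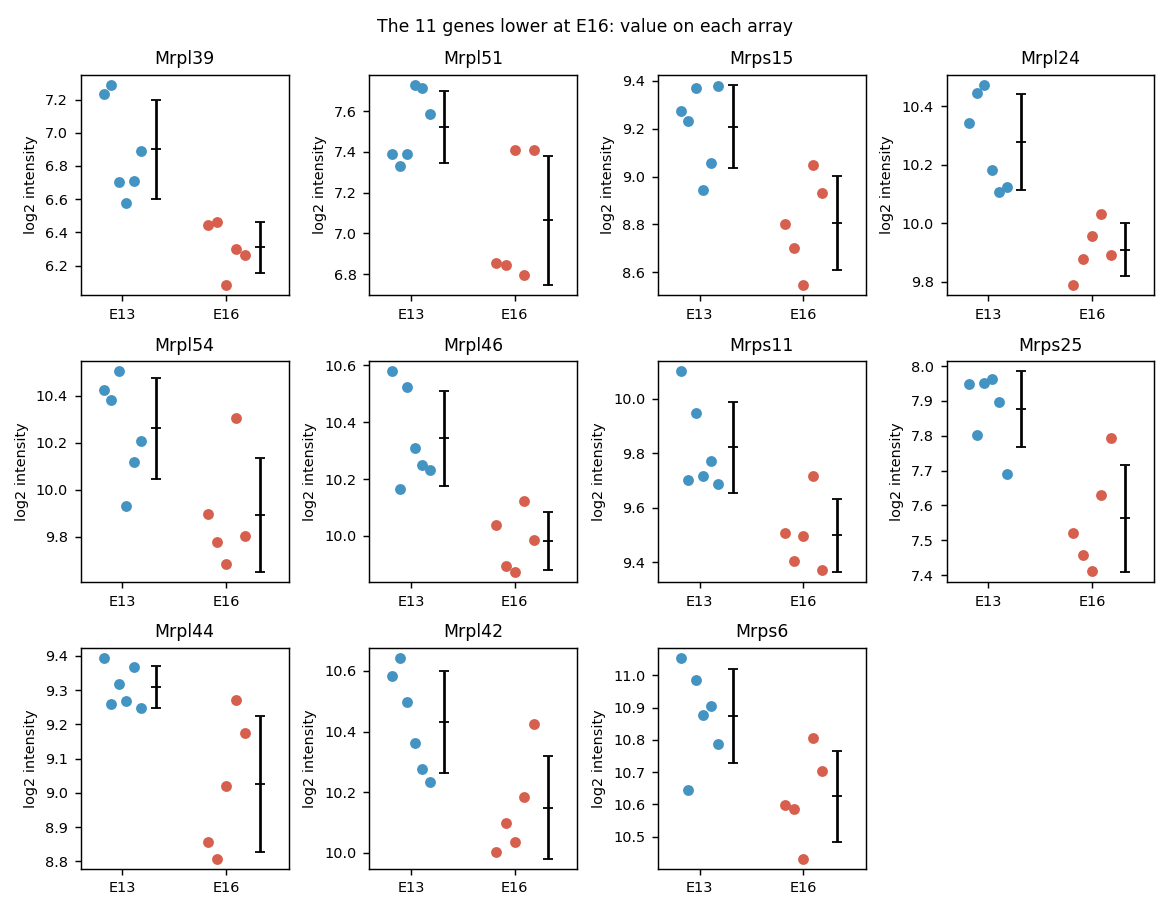
Normalized log2 intensity on each array for the 11 genes that fell, blue for the 6 E13 and red for the 5 E16 arrays in replicate order, with the mean and SD as black bars and a separate axis for each gene. The stages do not overlap for Mrpl39, Mrpl24 and Mrpl46 and overlap for the other 8 genes.

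Calls of 4 of these 11 genes (Mrpl24, Mrpl39, Mrpl46 and Mrps15) held whichever single array was left out. Those of the other 7 did not, with adjusted p up to 0.130 for Mrps6 and 0.116 for Mrpl44. No alternative turned the direction of any of the 11.

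Among the large subunit genes that did not pass, the largest differences were those of Mrpl35 (-0.45, adjusted p = 0.0817) and Mrpl58 (-0.35, adjusted p = 0.128), a peptidyl-tRNA hydrolase that frees stalled ribosomes. Mrpl40 gave -0.26, Mrpl57 -0.24 and Mrpl50 -0.24 (adjusted p = 0.177, 0.254 and 0.0559). Mrpl12, which forms the stalk of the large subunit and binds the mitochondrial RNA polymerase, gave -0.05 (SE 0.0841, adjusted p = 0.724). Mrpl45 gave -0.07 (adjusted p = 0.771). Mrpl3, near the peptidyl transferase centre in its bacterial form, gave -0.17 (adjusted p = 0.153) with its brightest probe. A second probe of Mrpl3 read 9.43 on average at E13 and 8.98 at E16 and fell by 0.44 (adjusted p over probes 0.0184).

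Among the small subunit genes that did not pass, Mrps27, an RNA-binding subunit with pentatricopeptide repeats, stood out by its spread. Its E13 arrays ran from 5.46 to 7.50 and its E16 arrays read 7.36, 6.28, 5.69, 5.29 and 5.48. The SD was 0.836 at each stage, and the difference of -0.44 had an SE of 0.406 (adjusted p = 0.468). Mrps2 gave -0.29, Mrps18a -0.27, Mrps21 -0.24 and Mrps26 -0.21, with adjusted p between 0.0753 and 0.127. Mrps12, a subunit of the decoding centre, gave -0.11 (SE 0.145, adjusted p = 0.639). Mrps18b and Mrps18c, relatives of Mrps18a, gave -0.15 and -0.18, so all 3 genes lay on the same side of 0 and none passed. Mrps30 gave -0.002 (SE 0.0676) with a 95% interval from -0.15 to 0.14.

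Probes of one gene mostly lay on one side. Of 28 genes with several kept probes, 23 had all of them on the same side of 0, and the median gap between the highest and the lowest probe of a gene was 0.124 on the log2 scale. Tested one by one, 10 of 115 probes passed, all of them lower at E16, where the background over all probes was 22.6% called in either direction and 11.9% lower. Of the 115 probes 95 lay below 0.

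Genes were split by symbol number as a stand-in for bacterial homology, with Mrpl36 and Mrps21 as the last of the lower numbers. Of 41 tested genes with lower numbers 4 fell (median -0.15), and of 32 with higher numbers 7 (median -0.17). In the large subunit this was 1 of 26 against 6 of 20, with medians of -0.14 and -0.22. In the small subunit it was 3 of 15 against 1 of 12, with medians of -0.17 and -0.09. Of all genes 14.1% fell. This split was made after the values were seen, follows the numbers in the symbols, and was not tested. The numbers do not settle for each gene whether it has a bacterial homologue.

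Arrays of one stage differed in level in both subunits. The level of a subunit on an array is given as the median over its genes of the log2 value minus the mean of the E13 and E16 means. For the large subunit E13 replicates 1 to 6 read 0.16, 0.10, 0.18, -0.05, 0.01 and 0.002, and E16 replicates 1 to 5 read -0.17, -0.17, -0.13, 0.10 and -0.02. For the small subunit E13 read 0.18, 0.07, 0.18, 0.01, 0.04 and 0.03, and E16 read -0.09, -0.15, -0.17, 0.07 and -0.05. E13 replicates 1 to 3 were thus above replicates 4 to 6 in both subunits, and E16 replicate 4 lay as high as an E13 array. Of the 73 genes 43 had their highest E16 value on replicate 4. No label ties E13 replicates 1 to 3, or E16 replicate 4, to a litter or batch. Without E16 replicate 4 the medians were -0.19 for the large and -0.20 for the small subunit, and 9 and 7 genes fell. Of all 10568 genes 1509 fell in that fit, against 1495 with all arrays.

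**Figure D3:**
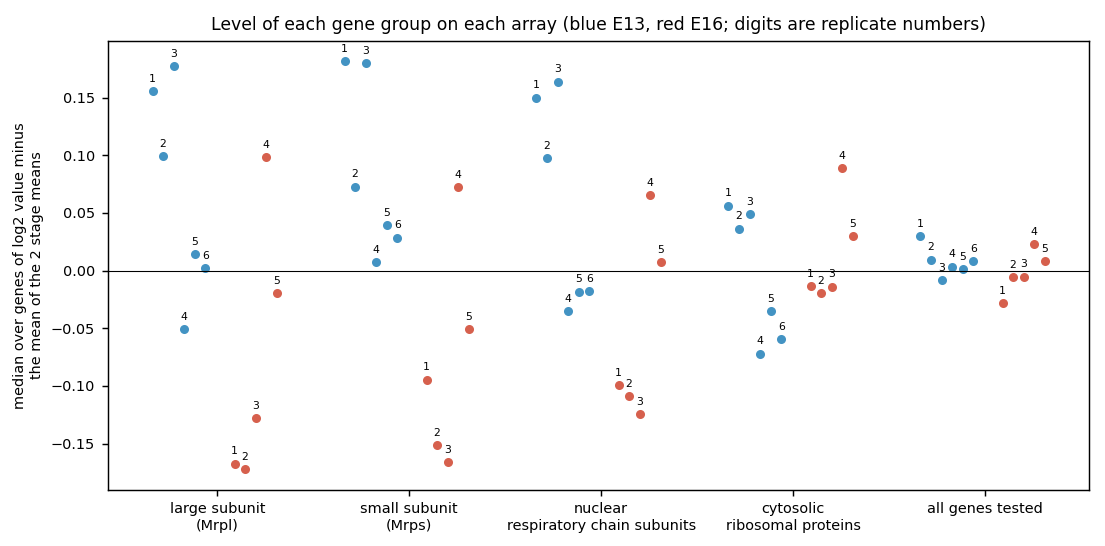
Level of 5 gene groups on each array, as the median over genes of the log2 value minus the mean of the stage means, blue for E13 and red for E16 with the replicate number above each point. In both subunits E13 replicates 1 to 3 are above replicates 4 to 6, and E16 replicate 4 (0.10 and 0.07) is the highest E16 array.

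The higher level of E13 replicates 1 to 3 than of 4 to 6, and of E16 replicate 4, was also seen in some other gene groups and not in all. The 4 ribosome subunits without an Mrpl or Mrps symbol read -0.14, -0.11 and 0.01, then -0.09, -0.04 and 0.03 at E13, and -0.06 on E16 replicate 4. Radial glia markers read 0.16 to 0.42 on E13 replicates 1 to 3 and -0.12 to 0.05 on 4 to 6. Postmitotic neuron markers read -0.03 to 0.05, then 0.14 to 0.20. Links between these levels were not tested. The 69 nuclear genes for subunits of the respiratory chain and the ATP synthase read 0.15, 0.10 and 0.16 on E13 replicates 1 to 3. On replicates 4 to 6 they read between -0.04 and -0.02. Their E16 arrays read -0.10, -0.11, -0.12, 0.07 and 0.01. Of these genes 6 passed (8.70%, against 27.1% of all genes), all lower at E16, with a median of -0.11 and 52 of 69 below 0. The 54 cytosolic ribosomal protein genes also read higher on E13 replicates 1 to 3 (0.04 to 0.06) than on 4 to 6 (-0.07 to -0.04), and highest at E16 on replicate 4 (0.09). Between the stages they had a median of 0.01, with 2 genes lower and 2 higher (7.41% called). The 2 lower genes were Rps4l (-1.20) and Rps27l (-0.23), and the 2 higher ones Rps15a (0.46) and Rpl22 (0.23). An alternative chosen after seeing the data subtracted the cytosolic ribosomal median of each array from every value. It gave medians of -0.14 for the large and -0.13 for the small subunit, and 5 and 2 genes fell. Of all 10568 genes 1263 fell in that fit, against 1495 without the subtraction.

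**Figure D4:**
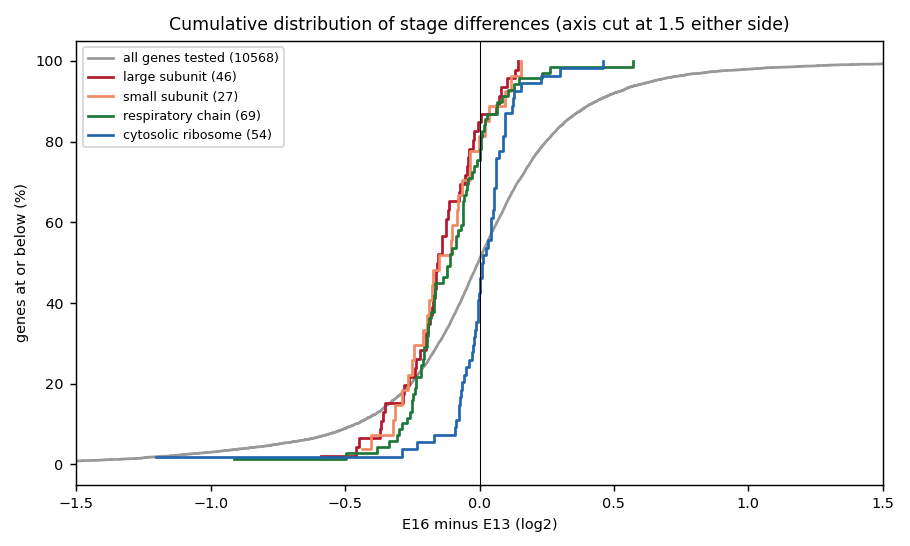
Cumulative share of genes (%) by E16 minus E13 difference on the log2 scale for all 10568 genes, both subunits, the respiratory chain (with the ATP synthase) and the cytosolic ribosome. The curves of both subunits nearly coincide, with 39 of 46 and 22 of 27 genes below 0, and the cytosolic ribosome is centred near 0.

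Other lists of mitochondrial translation genes had medians on either side of 0. Of all genes 27.1% were called, and no list of these genes had a larger share called. Of 4 subunits with other symbols 1 rose and 0 fell. Dap3, a GTP-binding subunit of the small subunit, ranged from 11.97 to 12.23 at E13 and read 12.38, 12.36, 12.23, 12.36 and 12.31 at E16. It rose by 0.21 (SE 0.0611, adjusted p = 0.0196 in limma). Of 16 translation factors 0 passed in limma and 4 had an unadjusted p under 0.05 (median -0.09), where 38.4% of all genes did. The RNA-binding Slirp gave -0.29 (adjusted p = 0.0530) and the elongation factor Guf1 0.41 (adjusted p = 0.0961).

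Among 25 genes of assembly and ribosomal RNA modification 3 fell and 2 rose (median 0.03). That is 20% called, against 27.1% of all genes. Tfb1m, the methyltransferase that modifies the small subunit RNA, ranged from 7.10 to 7.61 at E13 and read 6.28, 6.26, 6.63, 6.55 and 6.36 at E16. It fell by 0.84 (SE 0.126, adjusted p = 1.53e-04), and the stages did not overlap. The RNA granule protein Grsf1 fell by 0.36 (adjusted p = 0.00220). Afg3l2, a protease of the inner membrane that matures Mrpl32, rose by 0.86 (SE 0.170, adjusted p = 0.00151). The helicase Dhx30 rose by 0.25 (adjusted p = 0.0267). Of 17 genes of mitochondrial aminoacyl-tRNA synthesis 3 rose and 1 fell (23.5% called, median 0.11). The synthetases Wars2, Pars2 and Cars2 rose by 0.53, 0.39 and 0.28, and Rars2 fell by 0.26.

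Of 16 regulators of mitochondrial transcription and biogenesis 2 rose and 2 fell (median 0.06). That is 25% called, against 27.1% of all genes. Ppargc1a, a coactivator of mitochondrial biogenesis, ranged from 6.70 to 7.13 at E13 and read 5.88, 5.92, 6.26, 5.84 and 5.83 at E16. It fell by 0.90 (SE 0.129, adjusted p = 1.02e-04). Gabpb1, the partner of the DNA-binding factor Gabpa, fell by 0.56 (SE 0.103, adjusted p = 9.18e-04). The mitochondrial transcription factor Tfb2m rose by 0.45 (adjusted p = 0.00298) and the helicase Twnk by 0.37 (adjusted p = 0.0112). Tfam, which packs mitochondrial DNA, gave -0.06 (adjusted p = 0.699), and the RNA polymerase Polrmt gave 0.17 (adjusted p = 0.240).

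Promoter sequence was matched for 67 of the 76 genes (73 windows, RefSeq, GRCm38.p6). The median GC content was 58.7%, against 52.7% of all 32851 windows, and the median count of CG base pairs in sequence was 21 against 7. The NRF1 motif was in 17.8% of these windows and in 4.6% of all. The GABPA motif CCGGAAGT was in 16.4% against 3.89% of all, and the YY1 motif AAGATGGCG in 10.96% against 1.40%. The TATA motif TATAAA was in 6.85% against 13.6%. All motifs were searched on both strands, and matches of different motifs may overlap. The SP1 motif GGGCGG was in 52.1% against 35.7%, CCAAT in 38.4% against 37.4% and the E-box CACGTG in 9.59% against 7.15%. Motif shares were not compared with windows of the tested genes alone or of like GC content. Tested genes with the NRF1 motif had a median of -0.13 (12 genes, 2 fell) and those without it -0.16 (53 genes, 8 fell). With the GABPA motif the median was -0.18 (12 genes, 1 fell) and without it -0.14 (53 genes, 9 fell). With the YY1 motif it was -0.27 (8 genes, 2 fell) and without it -0.15 (57 genes, 8 fell). These medians are descriptions and were not tested.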

How the data were processed

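Total RNA of sorted cells was hybridised as biotin-labelled cRNA to an Illumina bead array, per the labels' protocols. The authors deposited linear probe intensity values, not normalized between arrays and with between 26.9% and 29.2% of values below 0, so a background had been subtracted. The detection p-value of each probe stood beside it, per the file headers. The authors' deposited value table of log2 values served as an alternative. The scanner software is not given in the sources used here.

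Intensities went through neqc (limma 3.58.1, R 4.3.3), which fits the background from the detection p-values, adds an offset of 16, equalises the quantiles and takes log2. Probes detected at p under 0.05 on at least 5 arrays were kept (20599), named through the platform table (17180 named), and the brightest probe per gene gave 10568 genes. Of all probes 34885 had 1 gene symbol, 18 several and 10378 none. E16 was compared with E13 with lmFit and eBayes with a trend. P-values were two-sided and Benjamini-Hochberg adjusted over all genes. The number of arrays limits the precision. The fit was tested on simulated data. Alternatives changed the background correction, normalization, detection filter, probe rule, trend, array weights, replicate block, threshold and arrays used. The fits without E13 replicate 1 and E16 replicate 3 together, and relative to the cytosolic ribosomal proteins, were chosen after seeing the data.

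The members and gene lists were chosen with earlier results of these data known. Named members were those past 0.05, the 5 with the largest differences per subunit among the others, those detected on only some arrays, those with probes that differ in call, and Mrpl12, Mrps12, Mrps18a, Mrps18b, Mrps18c and Mrps30. Up to 4 genes past the threshold were named per other list, or 2 where none passed, besides Dap3, Tfam, Polrmt, Ppargc1a and Eomes. Mrps36 and Mki67, without a named probe, were not analysed here. Genes named beyond this rule were chosen after their values were seen.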

Additional observations from a re-analysis of the deposited data

Results flagged for a closer look

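In 94 groups of arrays examined (each named gene of the mitochondrial ribosome and its translation system, and both subunit levels, at each stage), 4 held an array far from the others of its stage, and chance alone gives about 1 in 20. Mrps12 read 10.6 on E13 replicate 6, and the other E13 arrays lay between 11.1 and 11.3. Guf1 read 8.37 on E13 replicate 1 against 9.14 to 9.58 on the others. Rars2 read 9.55 on E13 replicate 1 against 9.72 to 9.77. Ppargc1a read 6.26 on E16 replicate 3 against 5.83 to 5.92 on the other E16 arrays, which is still below every E13 array.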

How the results depend on the processing

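The median difference of each subunit stayed below 0 under every alternative run, and 0 genes rose in either subunit under any of them. The number of genes that fell was less stable than the median. From 7 large and 4 small subunit genes it went to 3 and 2 with no detection filter. Array weights gave 11 and 8, and a threshold of 0.01 gave 3 and 0. Among all genes 1495 of 10568 fell in the main fit and 1320 of 19057 with no detection filter. Array weights gave 1721 of all genes lower, and the threshold of 0.01 gave 949. Without E13 replicate 1 and E16 replicate 3 together, chosen after seeing the data, the subunit counts were 2 and 0 (1153 of all genes). Relative to the cytosolic ribosomal proteins they were 5 and 2 (1263 of all genes). Leaving out 1 array at a time gave between 3 and 10 large and between 1 and 7 small subunit genes. Of all genes it gave between 1298 and 1509. Median centring moved the median of all genes from -0.01 to -0.05 and gave -0.18 and -0.17 for the subunits. Centring moved the share of higher among all called genes, with 966 higher and 1616 lower in place of 1373 and 1495. The replicate block, over the numbers 1 to 5, gave 3 large and 1 small subunit genes lower, and 1293 of all genes. The replicate numbers do not pair the stages: deviations of same-numbered arrays correlated between -0.10 and 0.14. Mrpl45, Mrps12 and Mrps30, none of which passed, lay above 0 under at least 1 alternative. Leaving out arrays also reduces the residual degrees of freedom, and what changed the counts was not tested. Signal near background limits Mrpl45, and 3 genes were detected on no array.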

Other observations

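Genes of the mitochondrial ribosome often shared a promoter region with another gene. Of 67 member genes with a RefSeq promoter, 25 (37.3%) had a gene starting on the opposite strand head to head within 1000 bases, against 12.2% of all genes and 19.6% of the tested genes with a promoter. Besides the pair Mrpl46 and Mrps11, 16 partner genes were tested whose member was tested too, and 2 of them fell and 1 rose. Of all genes 14.1% fell and 13% rose. Ska3, a kinetochore gene whose start lies 76 bases from that of Mrpl57, fell by 1.22 (SE 0.120, adjusted p = 3.50e-06 in limma), where Mrpl57 gave -0.24 (adjusted p = 0.254). Tcp1, a subunit of a cytosolic chaperonin beside Mrpl18, fell by 0.28 (adjusted p = 0.0261), where Mrpl18 gave -0.18. Twnk, the mitochondrial DNA helicase beside Mrpl43, rose by 0.37 (adjusted p = 0.0112), where Mrpl43 gave -0.04 (adjusted p = 0.767). These genes were named after their values were seen, and differences between partners were not tested.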
